A study of Mus musculus with 6 samples.

Results

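The elastic fibre and spondin genes are 10 listed genes of the extracellular matrix: the fibrillins *Fbn1* and *Fbn2*, elastin (*Eln*), the fibulins *Fbln1*, *Fbln2* and *Fbln5*, the latent TGF-beta binding proteins *Ltbp1* and *Ltbp2*, and the spondins *Spon1* and *Spon2*. Of these 10 genes, 9 had a probe set of their own on the array, each with 1 probe set, out of 19938 genes that had one and 23410 probe sets tested in all. *Fbn1* had no such probe set in the annotation used and was not analysed here. The group was chosen from the comparison described here, in which *Fbn2* and *Spon2* were already known to be among the largest rises, and the other genes are listed with them as genes of related matrix proteins. The fold changes and calls of the members are therefore a description of these 6 mice and not independent evidence for the group.

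The study asked whether clock-controlled expression in skin depends on BMAL1, the partner of CLOCK in the circadian activator. Total RNA from dorsal skin of 3 Bmal1-/- mice was set against that of 3 Bmal1+/- littermates, 1 mouse per Affymetrix Mouse Gene 1.0 ST array. Every mouse, controls included, carried at least 1 mutant *Bmal1* allele, so no wild-type level is given. All were staged as telogen, when hair follicles rest, at postnatal day 22. All 3 Bmal1-/- mice were female, as were Bmal1+/- replicates 2 and 3, while Bmal1+/- replicate 1 was male and is given as day 23 in another place of its labels. The deposited values are linear intensities of probe sets, groups of probes summarised to 1 value. The median intensity of an array lay between 219 and 234.5 in Bmal1-/- mice and between 221.9 and 235.5 in Bmal1+/- mice, and the number of arrays, 3 against 3, limits the precision. With 3 against 3, an exact two-sided permutation test of a single gene cannot give a p below 0.1. *Arntl*, the file's name for *Bmal1*, had intensities of 569, 609.8 and 664 in Bmal1-/- skin against 325, 365 and 355 in Bmal1+/- skin. The study, from its own test of these arrays, also lists *Bmal1* among the clock genes significantly higher in Bmal1-/- skin. Since the position of the *Arntl* probes relative to the deletion is unknown here, these values do not check the genotype labels.

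Elastic fibres give skin its recoil. Their core is cross-linked elastin, laid down on a scaffold of microfibrils whose backbone is fibrillin, and fibulins help to join the core to the scaffold. Latent TGF-beta binding proteins sit on the microfibrils and hold TGF-beta, a growth factor that drives matrix production, in an inactive store. Spondins are secreted matrix proteins with thrombospondin repeats, known from axon guidance and, for spondin 2 (mindin), from innate immunity.

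BMAL1 binds DNA at E-boxes, so the letters of that element and of related clock elements were looked for in promoter sequence. The RefSeq table of mouse promoters (assembly GRCm38.p6, from 250 bases before to 50 bases after a transcription start) held windows for 6 of the 10 genes, 9 windows in all. *Eln*, *Fbn2*, *Spon1* and *Spon2* had none, so the motif counts leave out both genes that were called. The *Fbln1* window at chr15:85205699-85205998, plus strand, is shown because it holds the E-box found among them, in capitals, and the 2 *Ltbp1* windows at chr17:75005279-75005578 and chr17:75178531-75178830, plus strand, are shown because *Ltbp1* had the lowest fold change among the members.
Fbln1 promoter: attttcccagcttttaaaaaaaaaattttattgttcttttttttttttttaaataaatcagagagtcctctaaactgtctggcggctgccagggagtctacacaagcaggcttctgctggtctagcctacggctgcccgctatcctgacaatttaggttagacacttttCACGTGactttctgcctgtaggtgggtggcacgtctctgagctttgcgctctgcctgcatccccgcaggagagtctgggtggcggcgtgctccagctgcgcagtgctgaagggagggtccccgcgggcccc
Ltbp1 promoter, first start: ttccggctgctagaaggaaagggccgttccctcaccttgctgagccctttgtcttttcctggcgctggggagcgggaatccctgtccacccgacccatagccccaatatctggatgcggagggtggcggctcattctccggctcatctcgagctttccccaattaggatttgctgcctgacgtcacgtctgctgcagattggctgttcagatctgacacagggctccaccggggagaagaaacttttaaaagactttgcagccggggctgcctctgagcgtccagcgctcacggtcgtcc
Ltbp1 promoter, second start: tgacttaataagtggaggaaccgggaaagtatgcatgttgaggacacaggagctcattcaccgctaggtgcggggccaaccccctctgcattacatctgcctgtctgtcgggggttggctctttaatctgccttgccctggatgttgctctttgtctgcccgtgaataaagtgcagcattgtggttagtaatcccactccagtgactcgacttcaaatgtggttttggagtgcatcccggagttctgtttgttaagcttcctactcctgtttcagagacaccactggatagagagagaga
The E-box CACGTG stood 81 bases before the first *Fbln1* start, and an overlapping window of a second *Fbln1* start held the same site at 140 bases before it. This element was present in 7.15% of all 32851 promoter windows of the table. The E-prime box CACGTT (4.68% of all windows), the D-box TTATGNAA (3.38%) and the core ANTAGGTCA of the ROR and REV-ERB element (0.661%) were in 0 of the 9 windows. Of 4 further motifs searched, the GC box GGGCGG (35.7% of all windows) was in 5 of the 9 windows, those of *Fbln1*, *Fbln2*, *Fbln5*, *Fbn1* and *Ltbp2*. The TATA box TATAAA (13.6%), a pair of Smad boxes GTCTAGAC (0.213%) and a CArG core CATATTAGG (0.113%) were in 0 of 9. Both strands were read, and a match of letters is not evidence of binding.

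Among the members, *Fbn2* and *Spon2* were higher in Bmal1-/- skin, each by nearly the same factor, and no member was called lower. *Ltbp1*, *Spon1* and *Fbln1* had lower values in all 3 Bmal1-/- mice than in any Bmal1+/- mouse without passing the threshold, and *Eln*, *Fbln2*, *Fbln5* and *Ltbp2* overlapped between the genotypes. Calls required an adjusted p under 0.05 in limma, fitted over all 23410 tested probe sets on the scale log2(intensity + 16), Bmal1-/- minus Bmal1+/-. On this scale the change of a dim gene is understated. Of the 9 measured members, 2 were called higher and 0 lower, against 0.0982% and 0.132% of all tested probe sets. The values of the genotypes did not overlap for 2 members that were higher and 3 that were lower in Bmal1-/- skin, while 6.99% of all probe sets did not overlap in the higher direction and 7.68% in the lower. Because the group was chosen on this comparison, nothing is read from these shares. The median log2 fold change of the 9 genes was 0.0046, against 0.014 over all tested probe sets.

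**Figure D1:**
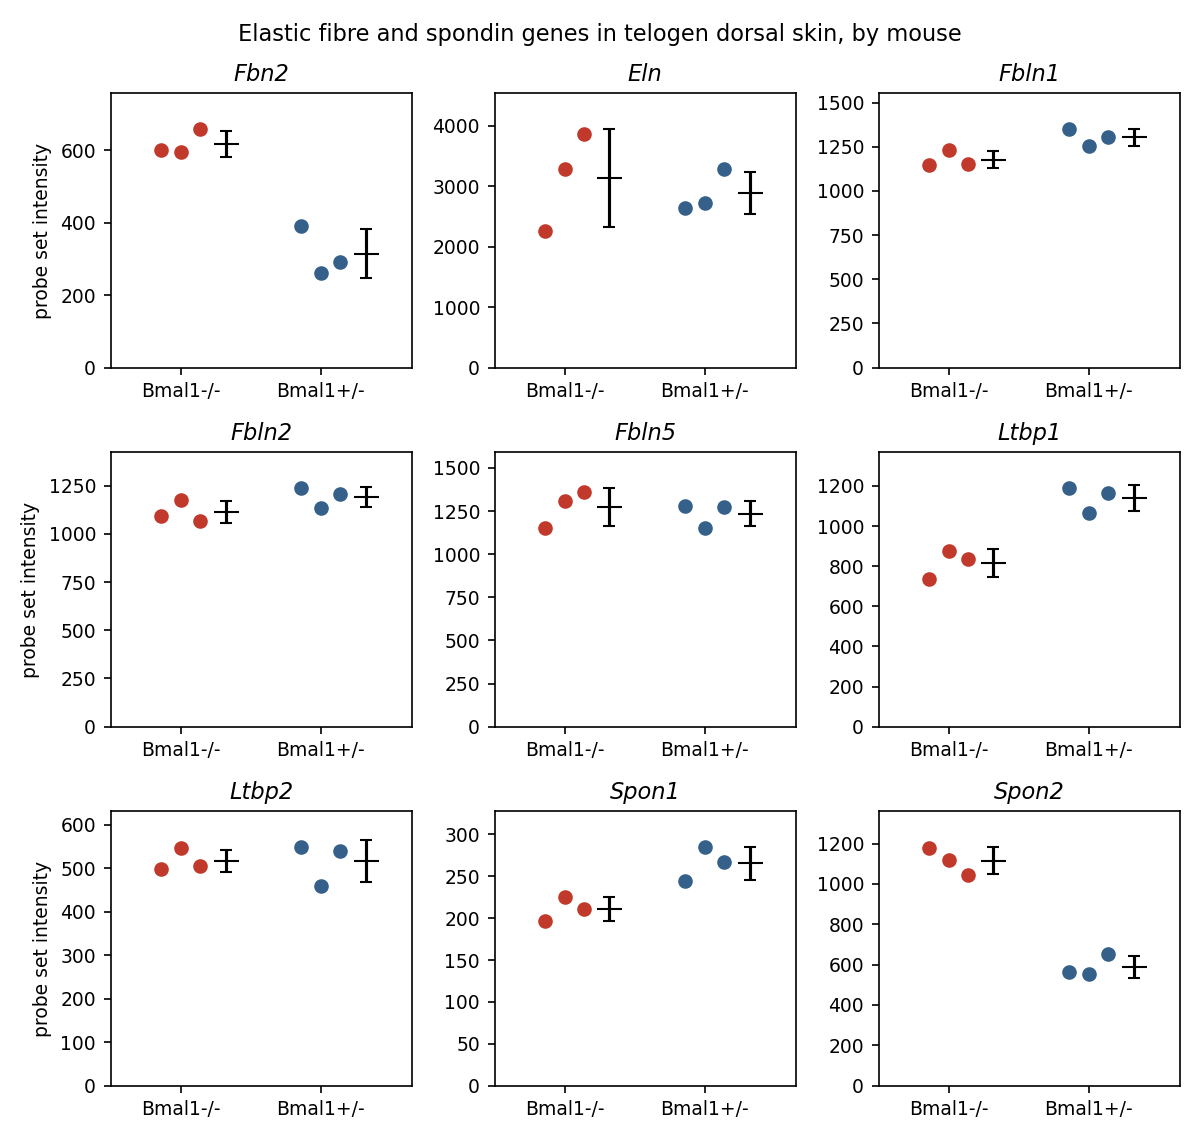
Probe set intensity (linear scale, from 0) of each of the 9 measured genes, 1 point per mouse, with genotype means and SDs (n = 3) beside the points. The *Fbn2* and *Spon2* points of Bmal1-/- mice lie above all Bmal1+/- points, those of *Ltbp1*, *Spon1* and *Fbln1* lie below them, and the other 4 genes overlap.

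*Fbn2* encodes fibrillin 2, the fibrillin of developing microfibrils. Its intensities were 600.0, 593 and 657 in Bmal1-/- skin against 389, 260.4 and 291 in Bmal1+/- skin. The 3 Bmal1-/- values were close to each other and all above the control values, of which the highest was that of the male mouse. The means were 617 ± 35.1 in Bmal1-/- skin and 314 ± 67.2 in Bmal1+/- skin (SD, n = 3 each), a ratio of 1.97. In limma the log2 fold change was 0.96 (SE 0.13, adjusted p = 0.018). Without the male mouse it was 1.12 (adjusted p = 0.0019). The call was lost without Bmal1+/- replicate 3 (limma adjusted p = 0.097), without Bmal1-/- replicate 1 (0.07) and without Bmal1-/- replicate 3 (0.079), as well as with unnamed probe sets tested too (0.092) and with no intensity trend in the variance (0.08).

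*Eln* encodes tropoelastin, the soluble subunit of elastin. Its intensities were 2259, 3283 and 3858 in Bmal1-/- skin against 2649, 2718 and 3285 in Bmal1+/- skin. The Bmal1-/- mice held both the lowest and the highest value, so the genotypes overlapped fully. The means were 3133 ± 810 in Bmal1-/- skin and 2884 ± 349 in Bmal1+/- skin (SD, n = 3 each). The limma log2 fold change of 0.09 (SE 0.17, adjusted p = 0.91) was smaller than its error, and it was -0.08 without Bmal1-/- replicate 3. No call on elastin could be made at this spread.

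The fibulins are calcium-binding glycoproteins of elastic fibres and basement membranes. *Fbln1*, which binds both fibronectin and elastic fibres, had intensities of 1149.5, 1232 and 1151 in Bmal1-/- skin against 1349, 1255 and 1306 in Bmal1+/- skin. The values did not overlap, though Bmal1-/- replicate 2 came close to Bmal1+/- replicate 2, and the log2 fold change of -0.14 (SE 0.06) missed the threshold in limma (adjusted p = 0.52). *Fbln2*, a fibulin of basement membranes and vessel walls, had 1095, 1176 and 1068 in Bmal1-/- skin against 1237, 1134 and 1206 in Bmal1+/- skin. These overlapped, with Bmal1-/- replicate 2 above Bmal1+/- replicate 2, and the log2 fold change was -0.10 (SE 0.06, limma adjusted p = 0.69). *Fbln5*, which tethers elastin to cells and without which mice have loose skin, had 1153, 1309.9 and 1360.2 in Bmal1-/- skin against 1279, 1154 and 1275 in Bmal1+/- skin. Its values overlapped almost completely, with a log2 fold change of 0.04 (SE 0.08, limma adjusted p = 0.91).

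*Ltbp1* encodes the protein that is linked to latent TGF-beta before secretion and anchors it in the matrix. Its intensities were 738, 873 and 834 in Bmal1-/- skin against 1188, 1064 and 1164 in Bmal1+/- skin. All 3 Bmal1-/- values lay below the lowest control value. The means were 815 ± 69.5 in Bmal1-/- skin and 1139 ± 66.1 in Bmal1+/- skin (SD, n = 3 each), a ratio of 0.716. The log2 fold change was -0.48 (SE 0.08), and the adjusted p of 0.055 in limma just missed the threshold. It passed when each array was shifted to the same median (limma adjusted p = 0.037) and in a Cyber-T type test (adjusted p = 0.036), within a range of 0.036 to 0.19 over the alternatives. *Ltbp2*, a relative that binds fibrillin and fibulin 5 but not latent TGF-beta, had 499, 547 and 505 in Bmal1-/- skin against 549, 460.4 and 540.4 in Bmal1+/- skin. Those values overlapped and the log2 fold change was 0.0046 (SE 0.08, limma adjusted p = 0.99), with a sign that turned when each array was shifted to the same median. The difference between *Ltbp1* and *Ltbp2* was not tested.

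*Spon2* encodes spondin 2, a secreted protein that binds bacterial surfaces and integrins of immune cells. Its intensities were 1179, 1121 and 1045 in Bmal1-/- skin against 563, 555 and 653 in Bmal1+/- skin. Every Bmal1-/- value lay far above every control value. The means were 1115 ± 66.8 in Bmal1-/- skin and 590.3 ± 54.5 in Bmal1+/- skin (SD, n = 3 each), a ratio of 1.89. The limma log2 fold change was 0.90 (SE 0.08, adjusted p = 0.0014), and the call held in all 18 alternatives run, with adjusted p between 5.2e-05 and 0.015. *Spon1*, which encodes F-spondin of the embryonic floor plate, had intensities of 197, 225.5 and 211 in Bmal1-/- skin against 244, 285 and 267 in Bmal1+/- skin. All its Bmal1-/- values were below the control values, unlike those of *Spon2*, and the log2 fold change was -0.31 (SE 0.09, limma adjusted p = 0.33). The difference between the 2 spondins was not tested.

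**Figure D2:**
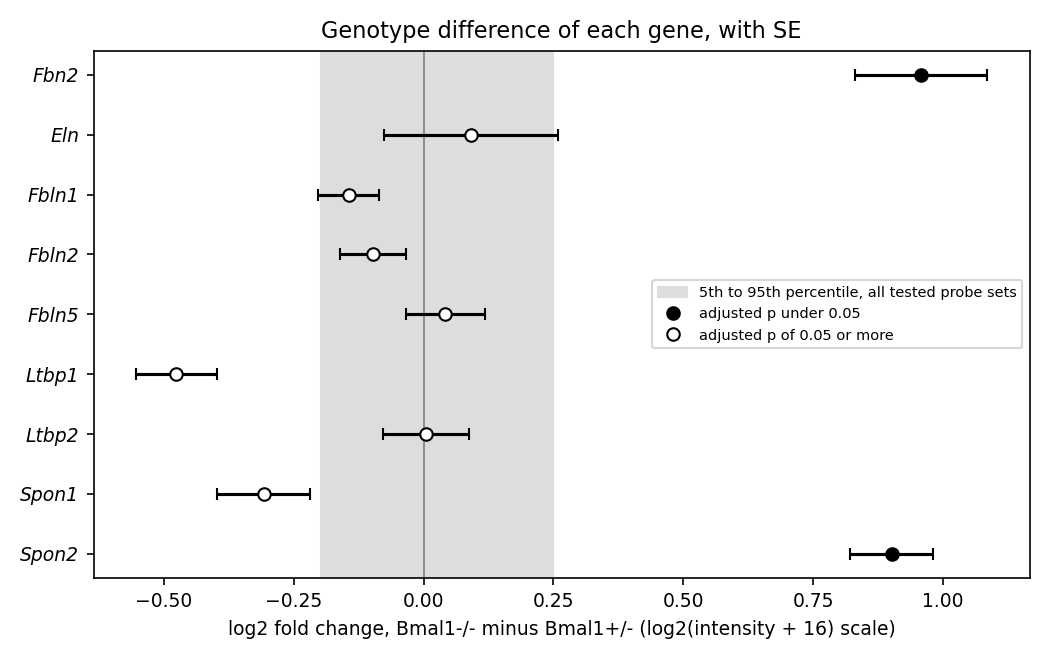
Log2 fold change of each gene, Bmal1-/- minus Bmal1+/-, with its standard error, on the log2(intensity + 16) scale. The grey band spans the 5th to 95th percentile of all tested probe sets, -0.20 to 0.25, and *Fbn2*, *Spon2*, *Ltbp1* and *Spon1* lie outside it, with *Fbn2* and *Spon2* called.

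Set in order among the log2 fold changes of all tested probe sets, *Fbn2* and *Spon2* each stood at percentile 99.9, *Eln* at 73, *Fbln5* at 59.1 and *Ltbp2* at 46.9. The genes with lower values followed, *Fbln2* at percentile 15.7, *Fbln1* at 9.14, *Spon1* at 1.75 and *Ltbp1* at 0.589. Neighbours from *Eln* to *Fbln1* in this order differed by less than their combined standard errors.

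*Spon1* lies on chromosome 7 near the mutated gene itself. In the RefSeq gene order of GRCm38.p6 it is the 4th protein-coding gene from *Arntl*, with 3 genes between them. This neighbourhood was looked at after the values had been seen. The 3 genes between, *Btbd10*, *Pth* and *Far1*, had log2 fold changes of -0.06, 0.13 and -0.04, and none was called. *Rras2*, just beyond *Spon1*, had 1001, 1014 and 1087 in Bmal1-/- skin against 902, 910.6 and 869 in Bmal1+/- skin, without overlap and in the direction opposite to *Spon1* (log2 fold change 0.21, SE 0.06, limma adjusted p = 0.34). Of all tested probe sets, 6.99% did not overlap in the higher direction and 7.68% in the lower. The next genes, *Copb1* and *Psma1*, overlapped, with log2 fold changes of 0.009 and -0.009 (limma adjusted p = 0.98 for each).

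The members also differed in how they varied between mice of 1 genotype. *Eln* varied most, with log2 deviations from the genotype mean of -0.43, 0.10 and 0.33 in the Bmal1-/- mice. *Fbn2* varied more in Bmal1+/- mice, where the male mouse stood 0.32 above the mean and replicate 2 stood at -0.23. *Fbln1* and *Fbln2* deviated together (r = 0.973 over the 6 mice, after removal of the genotype means), as did *Fbln5* with *Ltbp1* (r = 0.917) and *Eln* with *Fbln5* (r = 0.845). Over the 36 pairs of members r had a median of 0.374 and was above 0 in 27, and the lowest was that of *Fbn2* with *Spon1* (r = -0.723). These 6 points share their arrays and the normalization, and the correlations are given as a description.

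**Figure D3:**
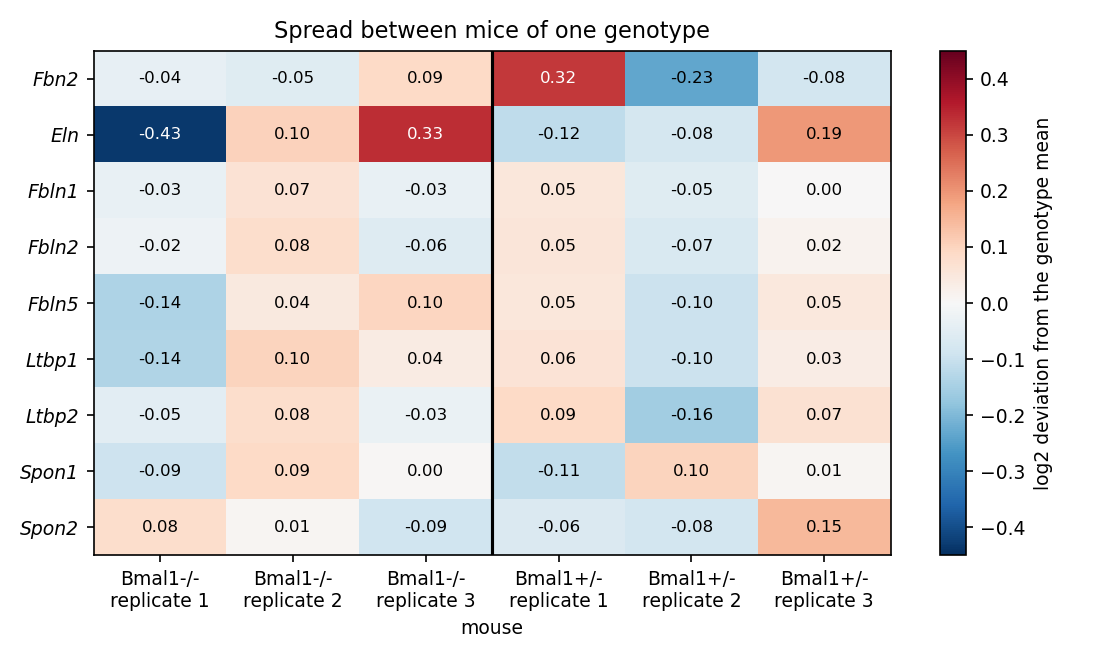
Deviation of each mouse from the mean of its genotype on the log2 scale, genes in rows and mice in columns, Bmal1-/- mice left of the line. *Eln* in Bmal1-/- replicate 1 (-0.43) and replicate 3 (0.33) and *Fbn2* in Bmal1+/- replicate 1 (0.32) are the deviations of largest size, while *Fbln1* and *Fbln2* share their signs in every mouse.

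No measured gene in the lists of other microfibril and elastic fibre genes and of lysyl oxidases was called. Over all tested probe sets the shares called were 0.0982% higher and 0.132% lower. At these shares a short list would hold few calls. Nothing is therefore read from their absence, here or in the lists below. Of 24 other microfibril and elastic fibre genes 23 were measured, and 0 were called, with 3 positive and 20 negative log2 fold changes and a median of -0.08. The lowest was *Adamtsl2*, whose product binds LTBP1, at 219 ± 19.6 in Bmal1-/- skin and 294 ± 18.9 in Bmal1+/- skin (SD, n = 3 each, log2 fold change -0.40, limma adjusted p = 0.19). *Emilin2*, a glycoprotein of the elastin and microfibril interface family, had a log2 fold change of -0.28 (limma adjusted p = 0.43). Of 5 lysyl oxidases, the enzymes that cross-link elastin and collagen, 4 were measured and 0 called (median -0.10), and *Loxl1*, the one tied to elastic fibres by fibulin 5, had 971 ± 67.6 in Bmal1-/- skin and 1051 ± 49.5 in Bmal1+/- skin (log2 fold change -0.11), with *Loxl4* at -0.17 and with a sign that turned without the male mouse.

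Of 18 genes for elastin-degrading proteases and their inhibitors 17 were measured. Of these 1 was called lower and 0 higher, with 8 positive and 9 negative log2 fold changes and a median of -0.05. The called gene was *Serpinb1a*, an inhibitor of neutrophil elastase, with 505 ± 35.4 in Bmal1-/- skin and 812 ± 112 in Bmal1+/- skin (SD, n = 3 each, log2 fold change -0.66, limma adjusted p = 0.035). Its call was lost in 9 of 18 alternatives, in which each of 5 mice left out alone gave an adjusted p of 0.059 to 0.14 in limma, and with a replicate block it was 0.078. Of 18 genes for TGF-beta ligands, receptors, targets and others tied to TGF-beta, 17 were measured. Of these 1 was called lower and 0 higher, with 15 negative log2 fold changes and a median of -0.11. The called gene was *Nrep*, whose product is known to raise TGF-beta production, with 1672, 2063 and 1987 in Bmal1-/- skin against 3285, 3086 and 3007 in Bmal1+/- skin (log2 fold change -0.71, limma adjusted p = 0.0066, and 0.058 without the intensity trend in the variance). All 3 Bmal1-/- values of *Nrep* lay below the control values, as did those of *Ltbp1*.

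None of the 16 integrin and other receptor genes was called (median -0.09). *Itgb6*, a subunit of an integrin that releases TGF-beta from its latent store, had a log2 fold change of -0.44 (limma adjusted p = 0.32), and *Vldlr*, a lipoprotein receptor, of 0.21 (limma adjusted p = 0.73). Of 20 thrombospondin repeat and related secreted proteins, relatives of the spondins, 0 were called, with 9 positive and 11 negative values and a median of -0.05. *Thbs4* and *Ccn2* were the lowest, both at -0.42, and both overlapped between genotypes. *Ccn2*, connective tissue growth factor, had 1433, 756 and 695 in Bmal1-/- skin against 1249, 1187 and 1249.7 in Bmal1+/- skin (limma adjusted p = 0.62). Without Bmal1-/- replicate 1, the highest mouse, it was called lower (log2 fold change -0.75, limma adjusted p = 0.0045). With any other mouse left out it was not called (limma adjusted p from 0.48 to 0.91). The highest value in this list was 0.23.

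The collagens and small matrix proteins give the rest of the dermal matrix. Of 19 collagen chains 0 were called, with 16 negative log2 fold changes and a median of -0.16, and 2 chains higher and 7 chains lower in Bmal1-/- skin did not overlap between genotypes, where 6.99% and 7.68% of all probe sets did not. The same counts, higher and lower, were 1 and 5 of the 23 other microfibril and elastic fibre genes, 0 and 0 of 4 lysyl oxidases, 2 and 2 of 17 proteases and inhibitors, 0 and 4 of 17 TGF-beta genes, 0 and 4 of 16 receptors, 1 and 3 of 20 thrombospondin repeat and related genes, and 0 and 5 of 20 small matrix proteins. Some genes are in more than 1 list, and *Ltbp4* is counted as lower in both the microfibril and the TGF-beta list. *Col5a3*, a chain of fibril-regulating collagen V, was the highest at 0.46 (limma adjusted p = 0.24) and *Col8a1*, of a network-forming collagen, the lowest at -0.38 (limma adjusted p = 0.42). Of 20 other small matrix proteins 0 were called, with 18 negative values and a median of -0.11. *Dpt*, a dermal protein that binds decorin, had 3537 ± 57.0 in Bmal1-/- skin and 4369 ± 278 in Bmal1+/- skin (SD, n = 3 each, log2 fold change -0.30, limma adjusted p = 0.12), and *Tnc*, an adhesion-modulating glycoprotein, had a log2 fold change of -0.36 with overlap. No difference between these lists and the 9 members was tested.

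**Figure D4:**
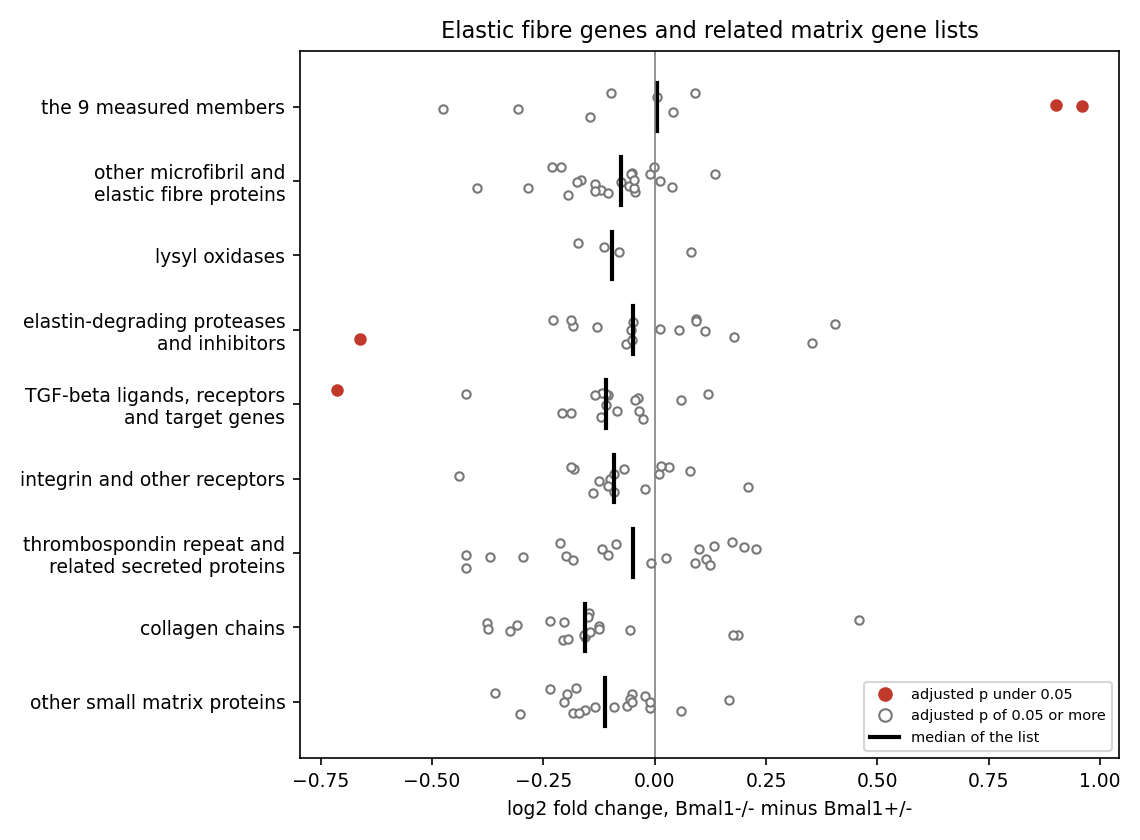
Log2 fold change, Bmal1-/- minus Bmal1+/-, of every measured gene in the 9 members and in 8 lists of related genes, with the median of each list as a bar and called genes filled. *Fbn2* (0.96) and *Spon2* (0.90) are the called genes above 0, *Serpinb1a* (-0.66) and *Nrep* (-0.71) those below it, and the medians of the 8 related lists lie between -0.16 and -0.05.

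The arrays measured whole skin, in which fewer cells of a type and less RNA per cell cannot be told apart. No marker gene of the 11 cell type lists was called, where 0.0982% of all tested probe sets were called higher and 0.132% lower. No measured marker was at 0. The 11 dermal fibroblast markers had 9 negative log2 fold changes, and the 2 positive ones were those of *Pdgfra* (0.0012) and *Pdgfrb* (0.10). Their summed intensities were 74238 to 82188 in Bmal1-/- skin and 81231 to 89152 in Bmal1+/- skin. These overlapped, with a ratio of 0.911. The brightest genes in this sum, *Col1a1*, *Col1a2*, *Col3a1* and *Dcn*, are also counted in the matrix lists above. The 10 dermal papilla markers, with 9 negative values, summed to 3985 to 4792 in Bmal1-/- skin and 4959 to 5239.6 in Bmal1+/- skin, without overlap, a ratio of 0.866. The largest change among them was that of *Wif1* (log2 fold change -0.52, limma adjusted p = 0.15). The sums for smooth muscle and for cartilage, other sources of elastic fibre proteins, had ratios of 1.00 and 1.00. Most of the cartilage sum came from *Col2a1* and *Sox9*, and the other cartilage markers had genotype means of 52.4 to 125. The ratio was 0.931 for macrophages, 1.096 for endothelial cells and 1.103 for adipocytes. It was 0.956 for striated muscle and 0.996 for cornified and suprabasal keratinocytes. Each of these sums overlapped between the genotypes, for adipocytes with 16094 to 20210 in Bmal1-/- skin against 15733 to 18383 in Bmal1+/- skin. The sum of the 4 measured Schwann cell markers did not overlap and was higher in Bmal1-/- skin, opposite to that of the dermal papilla. It was 2530 to 2640 in Bmal1-/- skin against 2460 to 2482 in Bmal1+/- skin, a ratio of 1.05. The part of any difference in the cell type sums in the values of the elastic fibre genes was not tested. The keratinocyte markers expected of skin were bright, with sums over 7 basal markers of 30459 to 33906 in Bmal1-/- skin and 33197 to 36206 in Bmal1+/- skin.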

How the data were processed

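Skin RNA of 3 Bmal1-/- and 3 Bmal1+/- mice was hybridised to 6 arrays, 1 per mouse, and the mice were grouped by the sample labels. The authors deposited linear intensity values per probe set, for which the submitters' processing notes name Affymetrix Expression Console 1.1 and PLIER 2.0. How the background was corrected and the arrays were scaled, and on which genome build, was not given in the sources used here. Values below the offset of 16 made up 2.58% to 3.34% of an array. A platform annotation pairs 21789 of 35557 probe sets with 1 gene symbol, 1621 with several and 12147 with none. A gene was represented by its brightest probe set that names it alone.

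The 23410 probe sets with a symbol were tested on log2(intensity + 16) with limma 3.58.1 in R 4.3.3 (lmFit, eBayes with an intensity trend), two-sided, with Benjamini-Hochberg adjustment over all of them. The p-values set the genotype difference against the spread between these mice, with the variance of each probe set moderated across all tested probe sets. The study used Cyber-T without stating its settings in the text used here, so a Cyber-T type test in a form chosen here (window of 101 probe sets, prior weight 10) served as an alternative. Further alternatives changed the offset, the scaling, the rows tested, the minimum brightness, the intensity trend and the threshold, added a replicate block or a sex term, or left out each array in turn. The script was tested on simulated arrays.

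The members and all gene lists were chosen with earlier results of these data known. All members are named, with *Arntl*, and from each pathway or related list the called genes, or the 2 largest changes where none was called. The gene order near *Arntl*, the correlations between members and the promoter motifs were looked at after the values had been seen. The motif search was first run with 1 more letter in the core of the ROR and REV-ERB element and in the CArG core, also with 0 of 9 windows. It was then narrowed to the 4 clock elements, after the matches had been seen, and all 8 motifs were put back. A comparison of ratios between members within an array was looked at and is not reported. Gene order and promoters came from RefSeq tables (GRCm38.p6), which are not complete. Python 3.11.15, pandas 2.3.3 and matplotlib 3.10.9 made the tables and figures.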

Additional observations from a re-analysis of the deposited data

How the results depend on the processing

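Over 162 combinations of 9 members and 18 alternatives, 148 kept their direction and side of the threshold, 5 lost the call, 3 gained it and 6 turned sign. The 5 lost calls were all of *Fbn2*, and the 3 gained all of *Ltbp1*, whereas *Spon2* was called throughout. With all rows tested 15 probe sets were called higher and 19 lower, with 1 member higher. Without the intensity trend 11 were called higher and 16 lower, again with 1 member higher. The Cyber-T type test called 47 higher and 87 lower, and an unadjusted p under 0.001 gave 59 and 93, each with *Ltbp1* as 1 member lower. Shifting each array to the same median also called 1 member lower and turned *Ltbp2* to -0.00137. With 1 mouse left out, 13 to 23 probe sets were called higher (15 without Bmal1-/- replicate 1, 13 without Bmal1-/- replicate 3 and 15 without Bmal1+/- replicate 2) and 22 to 34 lower, with 1 to 2 members higher. Log2 fold changes then ranged from -0.0751 to 0.309 for *Eln*, from -0.00685 to 0.111 for *Fbln5* and from -0.0736 to 0.049 for *Ltbp2*, so these 3 genes have no settled direction. *Loxl4* ranged from -0.286 to 0.00542, its sign turning without the male mouse or with a sex term (0.00542). The cause of these changes was not tested. Deviations of same-numbered mice correlated at 0.0778, -0.346 and 0.0559, and those of differently numbered mice at -0.263 to 0.259. Deviations from a mean of 3 mice depend on each other. Whether the replicate numbers pair littermates therefore cannot be told from these values. With a replicate block 20 probe sets were called higher and 34 lower, with 2 members higher and 0 lower, and of the named genes *Serpinb1a* alone changed its call (adjusted p = 0.078 in limma). Since 1 mouse was male, adding sex is the same as leaving that mouse out. Each member has 1 probe set, so the planned comparison with another probe set gave no value.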
